A study of Bos taurus with 8 samples.

Results

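The genes described here are 10 targets and feedback regulators of Wnt/β-catenin signalling, *AXIN2*, *LEF1*, *TCF7*, *TCF7L1*, *TCF7L2*, *NKD1*, *NKD2*, *NOTUM*, *RNF43* and *ZNRF3*. They were chosen by name, with earlier results of these data known. A row of that name was found for 9 of the 10 among the 24596 genes counted, and *NOTUM*, which encodes a secreted enzyme that inactivates Wnt ligands, was not analysed here. When a Wnt ligand binds its receptors, β-catenin escapes destruction, enters the nucleus and joins a TCF/LEF factor at target genes. Several targets encode brakes on the same pathway, so that their transcripts are widely used as a readout of signalling. Wnt signalling has been linked to the upkeep of *PRG4*, the gene of the joint lubricant lubricin, in the surface layer of articular cartilage, and the comparison below asks how these genes differ between the surface and the depth of that tissue. Chondrocytes were taken from the superficial zone (SZCs) and the deep zone (DZCs) of knee cartilage of wild type calves aged 1 to 2 weeks, and cultured for 3 days in medium with serum before RNA was purified. There were 2 RNA-Seq libraries for each zone, from cells without any agent or genetic change, and a middle slice of the cartilage had been discarded. Slices of both zones came from the same cores and were collected joint by joint, and 3 days of culture outside the matrix limit these cells as a model of the intact layers. No source names the joint behind each library, so p-values measure the spread between these libraries.

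The 4 libraries held between 19918970 and 21890549 counts. Levels are given as CPM, the counts of a gene scaled to a common library total, with the trimmed mean of *M* values (TMM) as scaling. The floor of detection was set at 3 counts, which is 0.129 to 0.187 CPM. The zones were compared with the exact test of edgeR over the 12857 genes that passed its filter on low counts, and a gene was called at an FDR (Benjamini–Hochberg adjusted p-value) below 0.05. The zone labels fitted their markers, since *PRG4* lay at 3166 and 2024 CPM in SZCs and at 15.3 and 61.5 CPM in DZCs, and *COL2A1*, the cartilage collagen, was abundant in every library. DZC replicate 1 stood apart. Its 5 cell cycle genes summed to 11.1 CPM against 143 to 258 CPM in the other libraries, and its 5 fibroblast genes to 2802 CPM against 10766 to 17554 CPM. Its 8 chondrocyte genes, *COL2A1* among them, summed to 485946 CPM, against 188467 CPM in DZC replicate 2 and 120684 and 123310 CPM in SZCs. The part of these differences in the results below was not tested.

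*AXIN2* was the only one of these genes that passed the test, and it was higher in SZCs. It encodes a scaffold of the complex that destroys β-catenin, and its transcript is induced by the pathway it restrains. *AXIN2* (ENSBTAG00000030162) had 598 and 604 counts in SZCs, against 168 and 188 in DZCs. These counts correspond to 27.2 and 26.0 CPM in SZCs and to 10.5 and 8.43 CPM in DZCs, so the lowest SZC library was 2.49-fold above the highest DZC library. On the log2 scale the fold change was 1.50 (standard error 0.38, 95% interval 0.75 to 2.24), or 2.82-fold, with an FDR of 0.00728 in the exact test of edgeR. By that test, 2.23% of all genes tested were called higher in SZCs, and *AXIN2* ranked 226th of the 12857 genes by p-value. Its libraries lay close together within each zone. The SZC pair differed 1.04-fold and the DZC pair 1.24-fold, against medians over 12712 genes of 1.18-fold and 1.47-fold. In RNA from whole cultures, fewer cells that express a gene and less RNA per cell cannot be told apart.

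**Figure D1:**
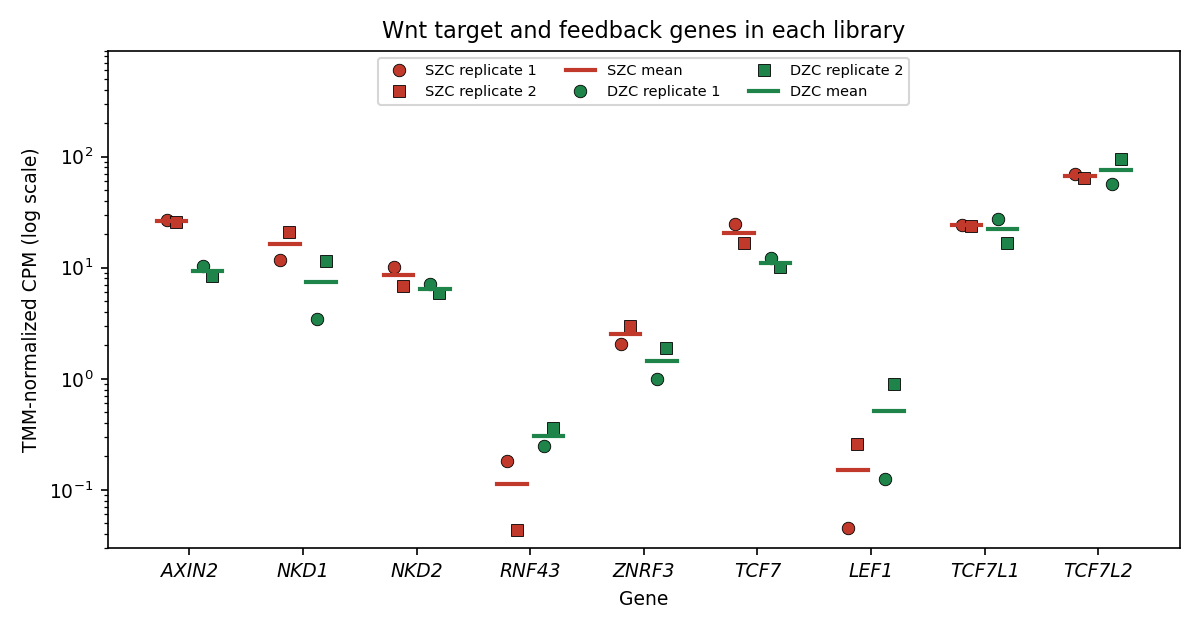
Level of each gene in each library, in TMM-normalized CPM on a log scale, with SZCs in red, DZCs in green, replicate 1 as circles, replicate 2 as squares and the mean of each zone as a bar. The *AXIN2* points form 2 tight pairs, 27.2 and 26.0 CPM against 10.5 and 8.43 CPM, while *TCF7L1* and *TCF7L2* overlap between the zones.

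The call for *AXIN2* depended on the test and on both SZC libraries. Leaving out single libraries moved its log2 fold change only between 1.36 and 1.66. Its call was kept with either DZC library left out, in edgeR fits that assumed the remaining DZC library to vary like the SZC pair. That pair had the smaller median spread over all genes, 1.18-fold against 1.47-fold in DZCs. The call was lost with either SZC library left out, where the remaining SZC library was assumed to vary like the DZC pair. The quasi-likelihood test of edgeR, which called 0.00% of all genes, gave *AXIN2* an FDR of 0.208 and an unadjusted p-value of 0.00202. The other 7 of 8 settings kept *AXIN2* below the threshold, among them DESeq2, which called 3.09% of all genes, and a fit with the replicate number as a block, which called 2.70%.

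*AXIN1* and *CTNNB1* served as references. *AXIN1*, the paralog of *AXIN2* that is not known as a Wnt target, lay at 48.4 and 37.0 CPM in SZCs and at 53.0 and 35.9 CPM in DZCs. Its log2 fold change was -0.06 (95% interval -0.81 to 0.70, FDR 1 by edgeR's exact test). *CTNNB1*, which encodes β-catenin, the substrate of the complex, lay at 264 and 316 CPM in SZCs and at 225 and 461 CPM in DZCs. The zones overlapped for both genes, and the log2 fold change of *CTNNB1* was -0.24 (95% interval -1.16 to 0.67). Within libraries, where scaling plays no part, the log2 ratio of *AXIN2* to *AXIN1* counts was -0.83 and -0.51 in SZCs and -2.34 and -2.09 in DZCs. The ratio was therefore 2.92-fold higher in SZCs, without overlap. With 2 libraries against 2, a two-sided exact permutation test cannot go below p = 0.333, which is the value it returned.

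*NKD1* and *NKD2* encode naked cuticle proteins, which bind Dishevelled and dampen the signal in the cytoplasm. Neither passed the test. *NKD1* (ENSBTAG00000012295) had 259 and 488 counts in SZCs against 55 and 258 in DZCs, or 11.8 and 21.0 CPM against 3.42 and 11.6 CPM. The zones barely separated, since the lowest SZC library was only 1.02-fold above the highest DZC library. Its log2 fold change of 1.13 (standard error 0.69, 95% interval -0.22 to 2.47) did not pass edgeR's exact test (FDR 0.755). The DZC libraries differed 3.38-fold, more than for 90.9% of genes with counts in every library, and the SZC libraries 1.79-fold, more than for 90.2%. DZC replicate 1, the library low in cell cycle and fibroblast genes, was the lowest of the 4. Without it the log2 fold change of *NKD1* was 0.51 (FDR 0.735), and without DZC replicate 2 it was 2.28 (FDR 7.21e-05), so the size of the difference rests on which DZC library is used. In that fit edgeR's exact test called 20.7% of all genes.

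*NKD2* (ENSBTAG00000034435) had 225 and 159 counts in SZCs against 114 and 131 in DZCs. These are 10.2 and 6.85 CPM against 7.09 and 5.87 CPM, and the zones overlapped. Its difference was 0.40 on the log2 scale (standard error 0.50, 95% interval -0.58 to 1.38, FDR 0.993 in edgeR's exact test). The data thus leave room for up to a 2.60-fold higher level in SZCs and, in the other direction, for a level down to 0.667 of that in DZCs. *NKD2* did not share the pattern of *NKD1* between the DZC libraries, as its higher value was in replicate 1.

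*RNF43* and *ZNRF3* encode membrane ubiquitin ligases that remove Frizzled receptors from the cell surface. *ZNRF3* (ENSBTAG00000022036) had 45 and 70 counts in SZCs against 16 and 42 in DZCs. Its levels of 2.04 and 3.02 CPM in SZCs lay above those of 0.995 and 1.88 CPM in DZCs, by as little as 1.09-fold between the nearest libraries. This came to a log2 fold change of 0.80 (standard error 0.69, 95% interval -0.55 to 2.15) with the FDR of edgeR's exact test at 0.927. *ZNRF3* was also lowest in DZC replicate 1, and its log2 fold change was 0.43 without that library, 1.36 without DZC replicate 2, 1.06 without SZC replicate 1 and 0.50 without SZC replicate 2.

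*RNF43* (ENSBTAG00000020119) was close to the limit of detection. It had 4 and 1 counts in SZCs against 4 and 8 in DZCs, and was dropped by the filter on low counts. The exact Poisson interval of its highest count, 8, ran from 3.45 to 15.8, and that of its lowest, 1, from 0.0253 to 5.57, which cover counting error only. After scaling, both DZC values, 0.249 and 0.359 CPM, were above the SZC values of 0.182 and 0.0431 CPM, but the counting intervals overlapped and no difference could be detected at this depth.

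The 4 TCF/LEF genes encode the DNA-binding partners of β-catenin. *TCF7* and *LEF1* encode factors that mainly activate and are themselves Wnt targets in many tissues, while *TCF7L1* encodes a factor known mainly as a repressor and *TCF7L2* one that can act in either way. *TCF7* (ENSBTAG00000001002) had 544 and 384 counts in SZCs against 195 and 225 in DZCs. Its levels were 24.7 and 16.5 CPM in SZCs and 12.1 and 10.1 CPM in DZCs, without overlap. The difference of 0.89 on the log2 scale (standard error 0.43, 95% interval 0.06 to 1.73) came with an unadjusted p-value of 0.0387 and an FDR of 0.474 by edgeR's exact test. The difference thus did not pass the correction, and it did not pass in any of the 8 other settings, where the FDR ran from 0.248 to 0.606. Whichever library was left out, *TCF7* kept a positive log2 fold change, from 0.57 to 1.15.

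*TCF7L1* (ENSBTAG00000010111) had 537 and 551 counts in SZCs against 441 and 376 in DZCs. Its levels were 24.4 and 23.7 CPM in SZCs, between the DZC values of 27.4 and 16.9 CPM. Its log2 fold change was 0.12 (95% interval -0.68 to 0.92, FDR 1 in edgeR's exact test), and it was -0.17 without DZC replicate 2. *TCF7L2* (ENSBTAG00000021574) showed the same arrangement, with SZC levels of 69.2 and 64.2 CPM inside the DZC levels of 56.4 and 95.2 CPM. The counts behind them were 1523 and 1491 in SZCs and 906 and 2125 in DZCs. For *TCF7L2* the log2 fold change was -0.18 (95% interval -0.96 to 0.59, FDR 1 in the same edgeR test), and its sign turned when libraries were scaled by their totals or when DZC replicate 2 was left out. The DZC libraries went opposite ways for these paralogs, replicate 1 being the higher for *TCF7L1* and replicate 2 for *TCF7L2*. The intervals leave room for levels up to 1.89-fold higher in SZCs for *TCF7L1* and 1.51-fold higher for *TCF7L2*.

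*LEF1* (ENSBTAG00000006844) had 1 and 6 counts in SZCs against 2 and 20 in DZCs and was dropped by the filter. Its highest count, in DZC replicate 2, had an exact Poisson interval from 12.2 to 30.9, which lay above the interval of 0.242 to 7.22 for the 2 counts of DZC replicate 1. It overlapped the interval of 2.20 to 13.1 for the 6 counts of SZC replicate 2. These intervals cover counting error only, not the spread between cultures, and the zones overlapped. *LEF1* and *TCF7* are also abundant in T cells, whose markers were close to absent here. The 5 T cell genes examined reached at most 3 counts in any library, and *CD2* was at 0 in all of them.

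**Figure D2:**
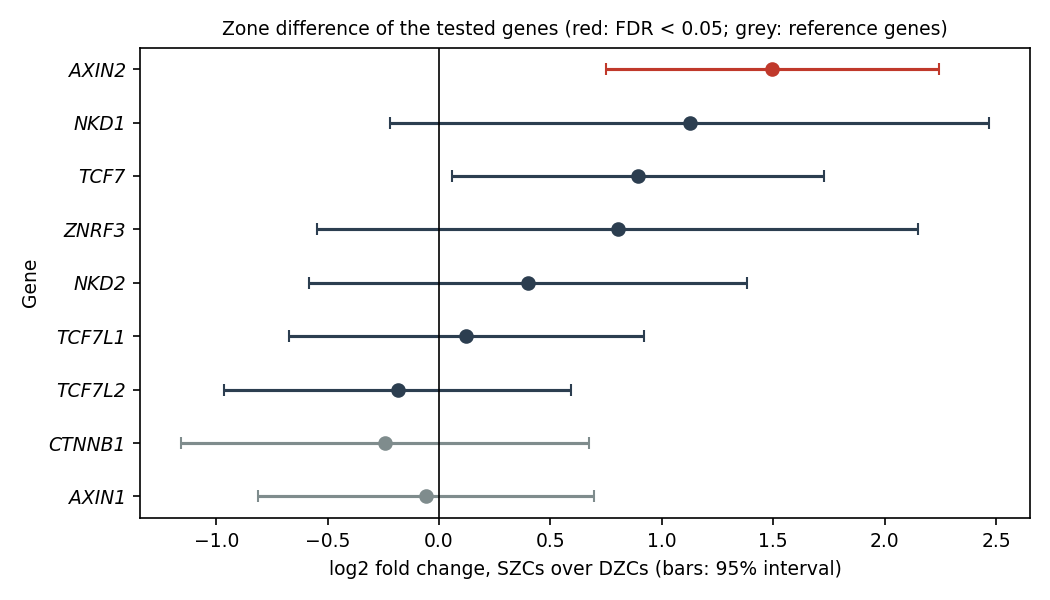
Log2 fold change of SZCs over DZCs for the 7 genes that were tested and for *CTNNB1* and *AXIN1* as references in grey, with bars for the 95% interval from the negative binomial model. Only the red point, *AXIN2*, passed an FDR of 0.05, and its interval ran from 0.75 to 2.24.

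Of the 9 genes with a row, 7 passed the filter and 2 did not. Among the 7, 1 was called, against 2.93% of all 12857 genes by edgeR's exact test, so the count of calls is a statement about *AXIN2* alone. The log2 fold change was positive for 6 and negative for 1, with a median of 0.80, beside a median of -0.04 over all genes tested. Both SZC libraries lay above both DZC libraries for 4 of the 7 (*AXIN2*, *TCF7*, *NKD1* and *ZNRF3*), and the zones overlapped for the other 3. Over all genes tested, 21.0% had that order and 20.5% the opposite one, 41.5% together. For *NKD1* and *ZNRF3* the gap between the nearest libraries was under 1.1-fold, and for *TCF7* it was 1.36-fold. Scaling by library totals alone moved the median of all genes to 0.26, an upward shift that also raised each of these fold changes.

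**Figure D3:**
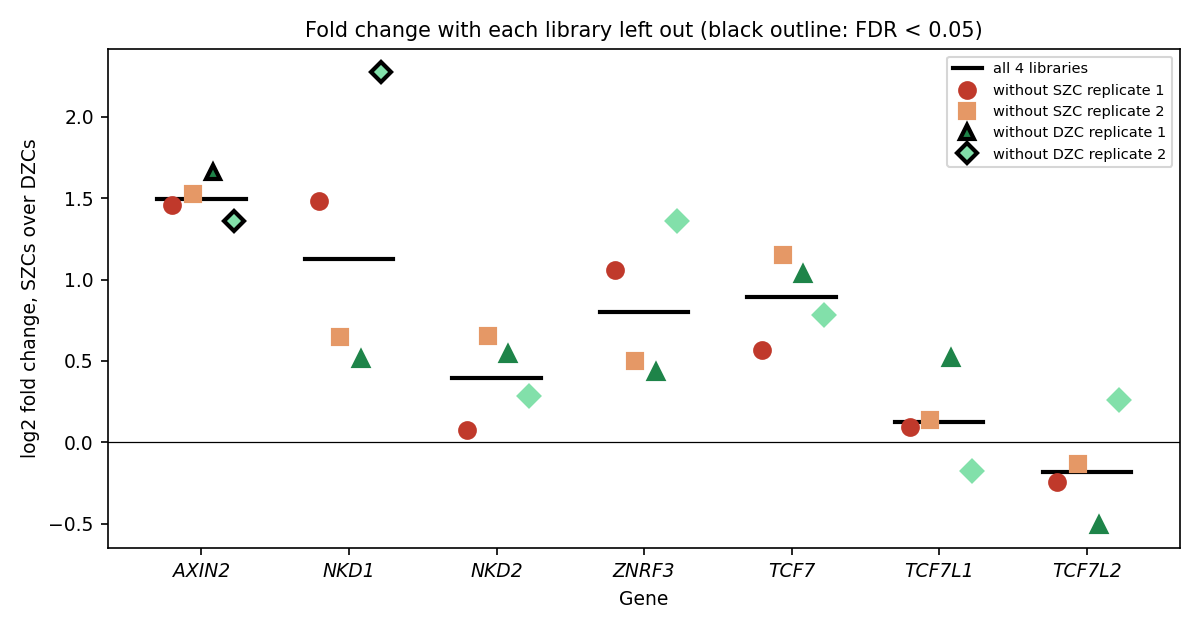
Log2 fold change of SZCs over DZCs for each tested gene after removal of 1 library at a time, with a black bar for the value with all 4 libraries and a black outline where the FDR of edgeR's exact test was below 0.05. *AXIN2* stayed between 1.36 and 1.66, whereas *NKD1* ran from 0.51 to 2.28.

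Ratios between related genes were taken within each library, with 0.5 added to each count, because neither scaling nor transcript length affects how a ratio changes between the zones. The ratio of *TCF7* to *TCF7L2* had log2 values of -1.48 and -1.96 in SZCs and of -2.21 and -3.24 in DZCs. It was 2.01-fold higher in SZCs, without overlap (p = 0.333 by exact permutation, the smallest possible). That difference of 1.00 on the log2 scale was 0.49 without DZC replicate 2 and 1.52 without DZC replicate 1. The ratio of *TCF7L1* to *TCF7L2* did not separate the zones, with log2 values of -1.50 and -1.44 in SZCs and -1.04 and -2.50 in DZCs. The ratio of *NKD1* to *NKD2* also overlapped, at 0.20 and 1.61 in SZCs against -1.04 and 0.98 in DZCs on the log2 scale, and the difference of 0.94 became -0.07 without DZC replicate 1 and 1.95 without DZC replicate 2. The ratios of *LEF1* to *TCF7L2* and of *RNF43* to *ZNRF3* rest on few counts of their first gene. For *RNF43* to *ZNRF3* the difference of SZCs minus DZCs was -2.35 on the log2 scale (exact permutation p = 0.333), but it was -1.24 without SZC replicate 2, where *RNF43* had a single count, and -3.46 without SZC replicate 1. With counts of 4, 1, 4 and 8 for *RNF43*, no direction is read from it. Over the 6 ratios the smallest Benjamini–Hochberg adjusted p of the exact permutation tests was 0.667, so no ratio can be called.

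**Figure D4:**
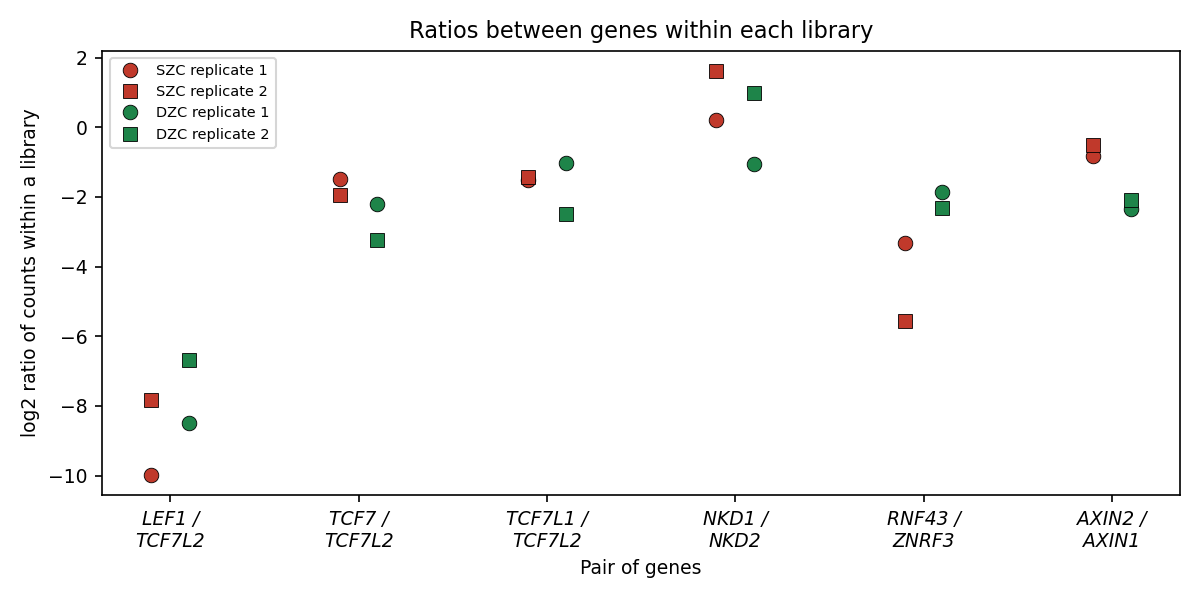
Log2 ratio of counts for 6 pairs of genes within each library, with SZCs in red and DZCs in green, and with replicate 1 as circles and replicate 2 as squares. Only the zones within a pair can be compared, since levels of different genes depend on transcript length, and the widest clean gap of a well counted pair is that of *AXIN2* to *AXIN1*.

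The other genes of the pathway were examined in 8 lists by role. Of 113 genes listed, 104 had a row and 82 were tested, of which 9 were called higher in SZCs and 3 higher in DZCs by edgeR's exact test, where 0.700% of all genes were called higher in DZCs. That is 14.6% of the 82, against 2.93% of all genes. The lists were chosen with earlier results of these data known, so setting these shares side by side is not a test of the pathway. The median log2 fold change of the 82 was 0.10, beside -0.04 over all genes, with 46 positive and 36 negative. The count fell to 2 without SZC replicate 1 and to 6 without SZC replicate 2, and rose to 18 without DZC replicate 1 and to 34 without DZC replicate 2, in fits that called 0.436%, 1.13%, 6.67% and 20.7% of all genes. Of the genes named from these lists below, *SFRP2* and *WIF1* were called whichever library was left out, although *WIF1* missed the threshold in DESeq2 (FDR 0.053). *WNT11*, *RSPO3* and *SFRP5* lost their calls without SZC replicate 1, and *WLS*, *FZD8*, *DACT1*, *TNFRSF19*, *BAMBI* and *EPHB2* without either SZC library. The fold changes of these 6 genes kept their direction. Those of *WLS*, *FZD8*, *DACT1*, *TNFRSF19* and *BAMBI* moved little, as for *FZD8* from 1.98 to 1.92 and 2.03 on the log2 scale. Among these 4 fits, *FZD10* was called only in the one without DZC replicate 2.

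Among ligands, 1 of 4 tested was called. *WNT11*, a ligand mostly linked to β-catenin-independent signalling, had 1261 and 483 counts in SZCs against 104 and 82 in DZCs. It was 7.71-fold higher in SZCs (log2 fold change 2.95, FDR 0.000667 in edgeR's exact test), although its SZC libraries also lay well apart, and its log2 fold change was 2.03 without SZC replicate 1 and 3.50 without SZC replicate 2. Of 2 genes for ligand secretion, *WLS*, the carrier that brings Wnt proteins to the cell surface, was higher in DZCs. It lay at 114 and 125 CPM in SZCs and at 526 and 385 CPM in DZCs, which is 3.82-fold higher in the latter (FDR 9.55e-05 in the same edgeR test). *PORCN*, which attaches the lipid of Wnt ligands, had a log2 fold change of 0.02.

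Of the R-spondins and their LGR receptors, which protect Frizzleds from *RNF43* and *ZNRF3*, 1 of 4 tested was called. *RSPO3* was higher in DZCs, with 11 and 30 counts in SZCs and 237 and 213 counts in DZCs. The level was 13.4-fold higher there (log2 fold change -3.75, FDR 2.42e-05 in edgeR's exact test). The log2 fold change of *RSPO3* was -3.23 without SZC replicate 1 and -4.59 without SZC replicate 2. The other 3 tested, *RSPO2*, *LGR4* and *LGR6*, did not pass and had log2 fold changes of 2.46, 0.71 and 2.26, with both SZC libraries above both DZC libraries, and the median of the 4 was 1.48. Among receptors, 2 of 13 tested were called and both were Frizzleds higher in SZCs. *FZD8* was 3.93-fold higher (27.5 and 25.6 CPM in SZCs, 4.35 and 9.10 CPM in DZCs, FDR 0.00558 by the same edgeR test). Its log2 fold change of 1.98 was 1.55 without DZC replicate 1, its lowest library, and 2.62 without DZC replicate 2. *FZD10*, with only 3 and 6 counts in DZCs, was called by edgeR's exact test (FDR 0.025) and passed in 4 of the 8 other settings.

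Of 11 antagonists tested, 2 were called higher in SZCs and 1 higher in DZCs. *WIF1* and *SFRP2*, which encode secreted proteins that bind Wnt ligands, had log2 fold changes of 5.36 (FDR 0.00404) and 4.97 (FDR 7.21e-09) in edgeR's exact test. *WIF1* had 919 and 2098 counts in SZCs but only 2 and 68 in DZCs, and *SFRP2* 11063 and 3760 against 127 and 296. The size of both rests on single libraries. For *WIF1* the log2 fold change was 4.44 without DZC replicate 1, 9.0 without DZC replicate 2 and 4.70 without SZC replicate 2, and for *SFRP2* it was 3.93 without SZC replicate 1 and 5.57 without SZC replicate 2. *SFRP5*, of the same family as *SFRP2*, went the other way, at 5.22 and 7.32 CPM in SZCs and 38.1 and 39.4 CPM in DZCs. It was 6.17-fold higher in DZCs (FDR 4.23e-08 in edgeR's exact test). In the cytoplasmic relay 1 of 19 was called, *DACT1*, which encodes a Dishevelled-binding protein. *DACT1* lay at 27.1 and 25.6 CPM in SZCs and at 11.5 and 8.74 CPM in DZCs (2.61-fold, FDR 0.0207 by edgeR's exact test), and it passed in 5 of the 8 other settings.

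Of 13 nuclear cofactors of the TCF/LEF factors 0 were called by edgeR's exact test, 0 by its quasi-likelihood test and 0 by DESeq2, with 1, 2 and 2 genes whose unadjusted p-value was under 0.05. Without DZC replicate 2, edgeR's exact test called 5 of them, in a fit that called 20.7% of all genes. The pair with the highest mean CPM were *CREBBP*, a co-activator, at 160 and 133 CPM in SZCs against 85.1 and 97.3 CPM in DZCs, and *TLE5*, which encodes a short relative of the Groucho co-repressors, at 75.8 and 83.8 CPM against 116 and 109 CPM. Of 17 other Wnt target genes tested, 3 were called and all were higher in SZCs. These were *TNFRSF19*, a receptor of the TNF family, *BAMBI*, a decoy receptor for TGF-β family ligands, and *EPHB2*, an Eph receptor. *EPHB2* lay at 34.8 and 26.2 CPM in SZCs and at 8.09 and 12.0 CPM in DZCs (log2 fold change 1.60, FDR 0.00933 by edgeR's exact test). *BAMBI* was 3.46-fold higher and passed in 4 of the 8 other settings. Both were lowest in DZC replicate 1, and without it their log2 fold changes were 1.35 for *EPHB2* and 1.49 for *BAMBI*. *TNFRSF19* had 145 and 146 counts in SZCs but 2 and 25 in DZCs and passed in 6 of these settings. Its log2 fold change of 3.32 was 2.52 without DZC replicate 1 and 5.64 without DZC replicate 2. The median log2 fold change of these 17 genes was 0.48, with 11 positive and 6 negative.

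**Figure D5:**
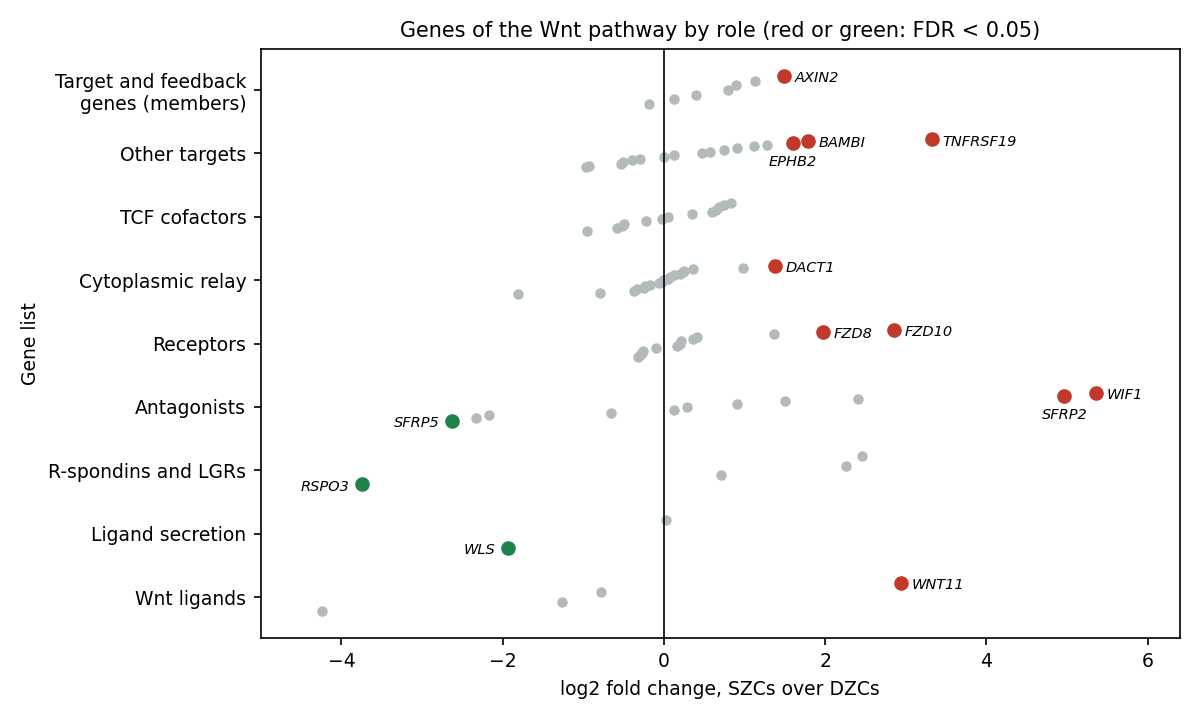
Log2 fold change of SZCs over DZCs for every tested gene of the Wnt pathway, 1 row of points per list, with called genes named and in red where higher in SZCs or green where higher in DZCs, and the remaining genes in grey. The called genes lie on both sides, with *WLS*, *RSPO3* and *SFRP5* on the deep zone side and *AXIN2* among those on the superficial zone side.

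Markers of other cell types were summed in each library. The 5 myeloid genes reached 17.5 and 28.1 CPM in SZCs and 6.41 and 12.7 CPM in DZCs, so both SZC sums lay above both DZC sums, as for *AXIN2*. This order was that of *CD14* (12.0 and 16.1 CPM against 3.92 and 6.59 CPM), while *PTPRC*, *CD68*, *CSF1R* and *AIF1* overlapped between the zones. The fibroblast sums had the same order, 12664 and 17554 CPM against 2802 and 10766 CPM, but they consist mostly of the collagen genes *COL1A1* and *COL3A1*, and 0 of the 5 genes passed edgeR's exact test. *COL3A1* and *PDGFRA* were higher in both SZC libraries, *COL1A1*, *THY1* and *POSTN* overlapped between the zones, and *POSTN* had a log2 fold change of -2.50. The 4 mural genes summed to 18.5 and 106 CPM in SZCs and to 54.7 and 316 CPM in DZCs, with overlap. Most of these sums was *ACTA2*, at 11.5 and 93.2 CPM in SZCs and 53.2 and 311 CPM in DZCs. *RGS5* and *NOTCH3* were higher in both SZC libraries, and *MYH11* overlapped between the zones. The 6 endothelial genes summed to between 3.86 and 10.6 CPM, with overlap between the zones. Among them *KDR* was higher in both SZC libraries and *VWF* in both DZC libraries. The 8 hypertrophic and bone genes summed to 4.59 and 7.41 CPM in SZCs and to 16.2 and 74.0 CPM in DZCs. In DZC replicate 1 this sum was mostly *IHH*, at 12.1 CPM. *IHH* lay at 2.15 CPM in DZC replicate 2 and at 0.591 and 0.215 CPM in SZCs (FDR 0.016 by edgeR's exact test). *COL10A1*, *IBSP*, *MMP13* and *PANX3* had 0 counts in DZC replicate 1, and *PHOSPHO1* overlapped between the zones. DZC replicate 2 was the highest library for that list and for *LEF1*. The part of these cells in the levels of the Wnt genes was not tested.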

How the data were processed

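Bovine SZCs and DZCs were profiled by RNA-Seq with 2 libraries per zone. The authors made libraries with a kit for very low RNA input, aligned 75-bp single-end reads with STAR 2.5.2b to Ensembl build UMD 3.1 (version 88), counted reads per gene without using strand, and deposited counts without normalization. Their deposited table of fold changes and FDR values was used only to fill 8 of 6119 blank gene names. Rows without a name took 1.47% to 1.94% of counts.

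Here edgeR 4.0.16 in R 4.3.3 was run with TMM scaling and the exact test, as the study's methods name, and with edgeR's default filter and dispersion. The methods state that gene-wise variation was modelled but name no filter or estimator. Standard errors and 95% intervals follow from the gene-wise dispersion. Library totals set the precision of each count. Alternatives were the quasi-likelihood test, DESeq2 1.42.0, 2 other filters, 2 other scalings, another dispersion estimate, a replicate block, and each library left out. Scripts were tested on simulated data. The members and gene lists were chosen with earlier results of these data known. The genes named are the members, *PRG4*, *COL2A1*, *AXIN1*, *CTNNB1*, up to 4 called genes per list and direction, and the 2 most abundant genes of a list without calls. *PORCN*, *CD2*, *RSPO2*, *LGR4*, *LGR6* and the myeloid, mural, fibroblast, endothelial, hypertrophic and bone genes were named after their values were seen. In RefSeq models of ARS-UCD2.0, the spans of 3 of the 10 genes (*LEF1*, *TCF7L1* and *ZNRF3*) overlap that of another gene model. Exons and strand were not compared, nor the build used for counting. Whether reads of such a model were counted for these genes was not tested. ATAC-Seq libraries were not analysed here.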

Additional observations from a re-analysis of the deposited data

How the results depend on the processing

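With the quasi-likelihood test of edgeR, 0 genes were called, so 0 in either direction, 0 of the members and 0 of the Wnt lists, although 1126 genes had an unadjusted p-value below 0.05 and DESeq2 called 397. *AXIN2* then had a log2 fold change of 1.50 (FDR 0.208). Scaling by totals alone called 44 genes higher in DZCs, against 90, and gave *TCF7L2* a log2 fold change of 0.049. SZCs had the higher level in 86.7% of those calls and in 76.1% with TMM. With each library left out, calls ranged from 58 to 2725 against 377 (52 to 1607 higher in SZCs, 6 to 1118 higher in DZCs), members called from 0 to 2, and calls in the Wnt lists from 2 to 34. Log2 fold changes ranged from 1.36 to 1.66 for *AXIN2*, from 0.51 to 2.28 for *NKD1*, from 0.43 to 1.36 for *ZNRF3*, from -0.17 to 0.52 for *TCF7L1* and from -0.51 to 0.26 for *TCF7L2*. The cause of these changes was not tested.

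The replicate numbers are shared between the zones, but no source states that they mark the same joint. Libraries with the same number deviated together from the means of their zones (r = 0.42 across genes, which are not independent). With the replicate number as a block, edgeR's quasi-likelihood test called 347 genes, 277 of them shared with the 377, and 11 of the Wnt lists against 12, losing *DACT1* (FDR 0.053), *BAMBI* (FDR 0.052) and *FZD10* (FDR 0.090) and gaining 1 ligand and 1 antagonist. It gave *AXIN2* a log2 fold change of 1.50 (FDR 0.0407), *NKD1* one of 1.30 (FDR 0.135) and *TCF7* one of 0.87 (FDR 0.262).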

Other observations

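Some genes of ligands and receptors were counted mainly in DZC replicate 2. *WNT2B* had 3 and 14 counts in SZCs against 14 and 297 in DZCs, *WNT10B* 0 and 3 against 7 and 40, and *LGR5*, a receptor for R-spondins and a marker of Wnt-responsive stem cells, 1 and 2 against 0 and 24. These genes were named after their values were seen. *WNT2B* did not pass the test (log2 fold change -4.24, standard error 1.27, FDR 0.108 in edgeR's exact test). Of 13 receptor genes, all of them tested, 7 were highest in that library, against 25.3% of all tested genes. *AXIN2* did not follow this order, since DZC replicate 2 was its lowest library.

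Several lists had most of their lowest values in DZC replicate 1, among genes with at least 10 counts summed over the libraries, a minimum that a gene can reach through a single library. Of 13 receptor genes 9 were lowest there, of 20 other Wnt target genes 15, of 5 R-spondin and LGR genes 4 and of 12 antagonists 7. The share was 36.5% of all tested genes and 44.0% of genes with that minimum but below the filter, and all but the receptor list include such genes. The remaining lists did not have most of theirs in that library, with 7 of 19 cytoplasmic relay genes, 6 of 13 nuclear cofactors, 0 of 6 ligands and 0 of 2 secretion genes. Of the 9 members with a row, 3 were lowest in DZC replicate 1 and 4 were lowest in DZC replicate 2.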
